A study of Mus musculus with 5 samples.

Results

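The genes described here are 10 regulators of DNA methylation, taken as a named list: the writers Dnmt1, Dnmt3a, Dnmt3b and Uhrf1, the erasers Tet1, Tet2 and Tet3, the isocitrate dehydrogenases Idh1 and Idh2, and Asxl1. They are 10 of 21887 protein-coding genes. For each of them H3K27ac peaks were sought at the gene ends, in the gene body and in the flanks. H3K27ac is histone H3 acetylated on lysine 27, a mark of active promoters and enhancers. It was profiled by ChIPmentation, in which the Tn5 transposase inserts sequencing adapters into immunoprecipitated chromatin. The cells came from mouse bone marrow, were sorted as CD45.2+ Lineage- Sca1+ Kit+, and are labelled HSC/MPP (stem cells and multipotent progenitors) with the genotype "Mll3/4 deleted". All 4 H3K27ac libraries and the 1 input library carry that genotype, and the labels give neither the Cre line, the age of the mice nor the number of animals. The CD45.2 gate selects cells by an allele of the CD45 antigen; the labels do not say which other cells were present.

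The 4 H3K27ac libraries share 1 deposited list of 22948 peaks called over input. It holds no value of a single library, so no value below has a replicate error, no test between groups was possible, and gains or losses on deletion were not measured. Each peak has the authors' signal value, read as the enrichment ratio of H3K27ac over background, and a q-value, given below as −log10 q. The median signal value of the list was 3.27, and the lowest 1.44. For 21.2% of the peaks, 4859 in number, q exceeded 0.05. Total depth is unknown, so a gene without a peak is one where none passed the authors' calling, which does not show that the mark was absent. Of the markers of the sorted cells, 5 of 8 had a peak within 1 kb of a gene end, Kit among them but not Ly6a, which encodes Sca1, against 36.2% of all protein-coding genes. A peak is not expression, and the cells' identity was not tested by this count.

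As background, Dnmt3a and Dnmt3b place methyl groups on unmethylated CpG sites, and Dnmt1 copies the pattern onto the new strand at replication, guided by Uhrf1, which binds half-methylated DNA. The TET enzymes oxidise methylcytosine, the first step of its removal, and use alpha-ketoglutarate, which Idh1 makes in the cytosol and Idh2 in mitochondria. Asxl1 is a partner of the deubiquitinase Bap1, which takes ubiquitin off histone H2A. In human blood, mutations of DNMT3A, TET2 and ASXL1 are known from clonal haematopoiesis and those of IDH1 and IDH2 from myeloid leukaemia, so 5 of the 10 genes belong to that group.

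The results turn on where peaks lie relative to the transcription starts, and 7 promoter windows are therefore shown. Each runs from 250 bases before to 50 after a start listed by RefSeq on GRCm38.p6, on the strand of the gene, with the bases that lie inside a called peak in capitals. For the 10 genes 16 starts were listed, and each gene had at least 1. Dnmt3a is shown at its first start, without a peak, and at its internal start, which lies inside one. Tet2 and Tet1 are shown as erasers with and without a start peak, Dnmt3b as the writer without one, and Idh1 and Asxl1 as windows that a peak enters in part.
Dnmt3a first start, chr12:3806730-3807029, plus strand, 0 of 300 bases in a peak: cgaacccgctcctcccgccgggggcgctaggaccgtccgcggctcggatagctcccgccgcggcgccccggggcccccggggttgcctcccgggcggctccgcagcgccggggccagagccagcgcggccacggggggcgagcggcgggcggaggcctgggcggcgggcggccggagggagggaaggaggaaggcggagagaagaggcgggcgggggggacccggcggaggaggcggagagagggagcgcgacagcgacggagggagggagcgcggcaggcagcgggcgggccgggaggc
Dnmt3a internal start, chr12:3891494-3891793, plus strand, 300 of 300 bases in a peak: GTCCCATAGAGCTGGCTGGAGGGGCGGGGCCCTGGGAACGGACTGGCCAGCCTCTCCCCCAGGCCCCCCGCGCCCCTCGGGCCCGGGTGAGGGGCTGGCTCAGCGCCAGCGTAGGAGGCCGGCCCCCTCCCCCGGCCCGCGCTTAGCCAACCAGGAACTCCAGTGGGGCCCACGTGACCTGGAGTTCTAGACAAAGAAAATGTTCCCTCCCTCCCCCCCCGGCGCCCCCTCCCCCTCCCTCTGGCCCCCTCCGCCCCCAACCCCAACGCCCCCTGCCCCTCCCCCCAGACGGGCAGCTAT
Dnmt3b start, chr2:153649199-153649498, plus strand, 0 of 300 bases in a peak: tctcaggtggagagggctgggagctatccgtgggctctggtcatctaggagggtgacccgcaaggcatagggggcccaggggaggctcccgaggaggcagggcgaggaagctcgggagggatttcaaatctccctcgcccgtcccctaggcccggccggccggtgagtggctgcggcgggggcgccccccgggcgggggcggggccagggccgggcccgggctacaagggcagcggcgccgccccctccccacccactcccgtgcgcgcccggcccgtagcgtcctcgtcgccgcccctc
Tet2 start, chr3:133544341-133544640, minus strand, 4 of 300 bases in a peak: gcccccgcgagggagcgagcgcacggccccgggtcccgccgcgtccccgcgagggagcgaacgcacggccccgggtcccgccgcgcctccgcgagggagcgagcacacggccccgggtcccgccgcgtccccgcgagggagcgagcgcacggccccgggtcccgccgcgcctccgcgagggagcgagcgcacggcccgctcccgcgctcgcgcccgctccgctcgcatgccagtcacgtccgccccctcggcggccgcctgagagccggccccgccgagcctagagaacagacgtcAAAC
Tet1 start, chr10:62887275-62887574, minus strand, 0 of 300 bases in a peak: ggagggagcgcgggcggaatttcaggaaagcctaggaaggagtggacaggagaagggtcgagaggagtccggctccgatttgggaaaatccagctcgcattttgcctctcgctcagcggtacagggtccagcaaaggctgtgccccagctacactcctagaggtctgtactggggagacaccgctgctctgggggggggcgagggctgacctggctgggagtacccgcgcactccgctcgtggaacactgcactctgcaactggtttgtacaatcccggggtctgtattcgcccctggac
Idh1 second start, chr1:65179093-65179392, minus strand, 107 of 300 bases in a peak: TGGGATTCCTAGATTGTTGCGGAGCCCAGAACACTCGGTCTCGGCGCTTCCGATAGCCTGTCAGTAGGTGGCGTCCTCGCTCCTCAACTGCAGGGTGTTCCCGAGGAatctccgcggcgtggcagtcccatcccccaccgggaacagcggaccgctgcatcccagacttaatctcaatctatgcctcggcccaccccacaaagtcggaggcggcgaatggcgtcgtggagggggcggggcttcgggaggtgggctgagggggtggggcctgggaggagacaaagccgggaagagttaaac
Asxl1 start, chr2:153345580-153345879, plus strand, 64 of 300 bases in a peak: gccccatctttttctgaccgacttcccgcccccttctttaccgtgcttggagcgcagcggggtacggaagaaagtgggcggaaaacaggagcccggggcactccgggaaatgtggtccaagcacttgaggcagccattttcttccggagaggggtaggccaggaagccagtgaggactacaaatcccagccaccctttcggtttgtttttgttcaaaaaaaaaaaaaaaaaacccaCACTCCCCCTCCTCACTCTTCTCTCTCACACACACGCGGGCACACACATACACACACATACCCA

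By the outer ends of the annotated genes, 4 of the 10 had a peak within 1 kb: Uhrf1, Tet2, Tet3 and Asxl1. Over all protein-coding genes this share was 36.2%, so 4 of 10 is near the background. By summits in place of any overlap the count was 3, against 33.3%, without Tet2, whose summit lay 1.28 kb from its outer end. All of these peaks were at the outer end on the upstream side of the gene, and 0 of the 10 had a peak at the far end, against 4.84% of genes with a listed start. The outer ends missed several starts, because 4 of these genes have more than 1 listed start and that of Idh2 lies over 1 kb inside the outermost annotated end. By the listed starts, 7 of the 10 had a peak within 1 kb, against 38.0% of the 17492 protein-coding genes with a listed start. These were Dnmt1, Dnmt3a, Uhrf1, Tet2, Idh1, Idh2 and Asxl1. Counted per start, 9 of 16 starts (56.2%) had a peak, against 37.4% of 21263 starts. At Dnmt1 and at Uhrf1 the same peak was counted at more than 1 start. A gene with several starts has more chances of a peak, and genes are not replicates, so these shares are a description of the list with no test. Neither background share is matched for CG dinucleotides in the window, whose median was 13 over all starts. The first Dnmt1 window held 2 of them and the other windows 12 to 57. Of all starts, 47.7% had a peak at 10 to 19 of them, 61.5% at 20 to 29 and 63.7% at 30 or more.

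**Figure D1:**
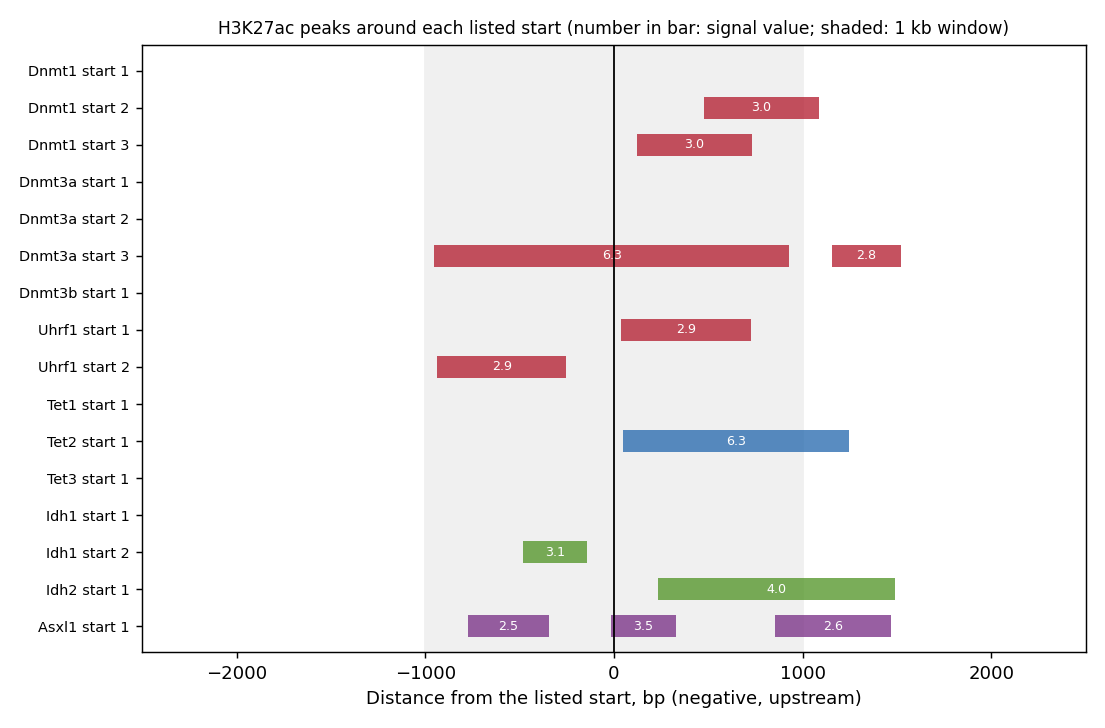
H3K27ac peaks within 2.5 kb of each of the 16 listed starts, with the x axis in bp from the start in the direction of transcription, bars for peaks and numbers for their signal values; colours mark writers (red), erasers (blue), isocitrate dehydrogenases (green) and Asxl1 (purple). A bar crosses the start itself only at the internal start of Dnmt3a and at Asxl1; the others begin or end beside it.

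The start peaks were mostly weak. Their signal values ran from 2.90 at Uhrf1 to 6.33 at Tet2, with a median of 3.46 over the 7 genes, against a median of 4.71 over the 6647 genes with a start peak. Of the 7 genes, 5 lay below that median and 2, Dnmt3a and Tet2, above it. The start base itself lay inside a peak in 2 of the 7 genes, and in 52.1% of all genes with a start peak. When −log10 q had to reach 5, the start count fell from 7 to 3 genes, namely Dnmt3a, Tet2 and Idh2, and the outer-end count from 4 to 1 gene, Tet2. Over all genes the shares fell as well, from 38.0% to 25.4% at listed starts and from 36.2% to 24.0% at outer ends.

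**Figure D2:**
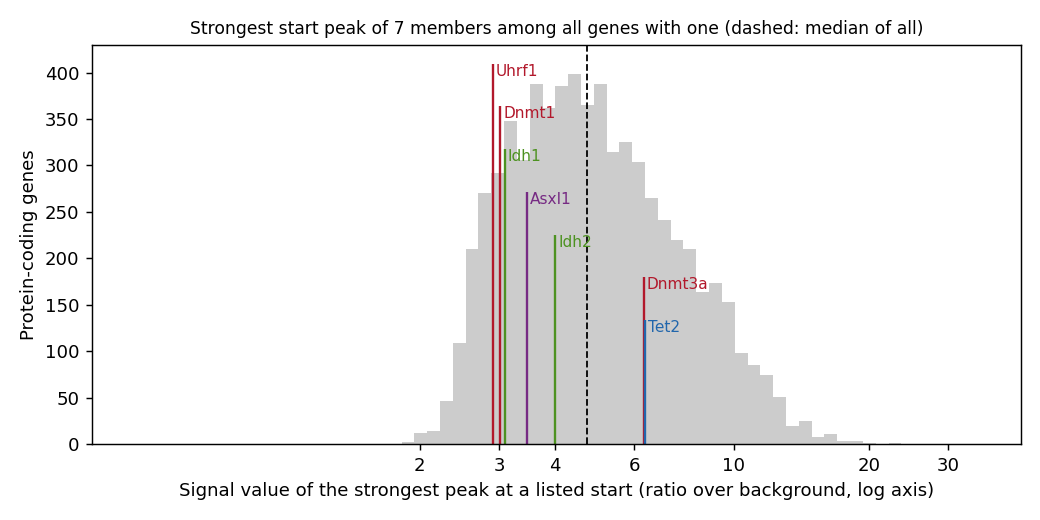
Signal value of the strongest peak at a listed start (x axis, a ratio on a log axis) for the 6647 protein-coding genes with one (grey histogram, y axis in genes), with the 7 genes marked by lines whose heights carry no value. Dnmt3a and Tet2 stand to the right of the dashed median of 4.71 and the other 5 to its left.

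Among the writers, Dnmt3a, a de novo methyltransferase, had the strongest start peak. It is known to be transcribed from an upstream start, which gives the long protein, and from an internal start, which gives the short one. The gene runs from 3801559 to 3914443 on chromosome 12. No peak lay within 1 kb of either upstream start, at 3806980 and 3807160, and the nearest peak edge was 27.1 kb from the second of them. The internal start at 3891744, 84.8 kb further along, lay inside a peak from 3890791 to 3892672 with a signal value of 6.30 (−log10 q 15.4). Its summit lay at -691 bp relative to that start. This value exceeded that of 72.1% of genes with a start peak. Its upstream window is among the richest in CpG, with 46 CG dinucleotides in 300 bases, more than 97.9% of the listed starts, while the internal window held 18. The start peak called at Dnmt3a was therefore at the start with fewer CG dinucleotides, as the sequences above show.

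Dnmt3a also had 4 peaks in its body away from the listed starts. The widest ran from 3854346 to 3857737, 3392 bp, with a signal value of 3.94 (−log10 q 5.64). The others had signal values of 2.81, 3.21 and 2.81, in the order of transcription. The last of them began 1158 bp beyond the internal start. The remaining 3 had their summits 33.2, 54.3 and 70.1 kb from the outer end, spread along the first part of the gene. All 4 had q-values under 0.05.

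Dnmt1, the maintenance methyltransferase, is known to have separate oocyte and somatic starts. It had no peak at its outer end, which is the first of 3 listed starts. A single peak, from 20951892 to 20952503 on chromosome 9, began 120 bp downstream of the third start at 20952623 and 476 bp downstream of the second at 20952979. It had a signal value of 3.02 (−log10 q 2.77), and 12.9% of genes with a start peak had a weaker one. In the order of transcription, the windows of the 3 starts held 2, 12 and 33 CG dinucleotides, so the start without a peak was the one with the fewest, whereas at Dnmt3a the starts without a peak held the most. No other peak lay in the 52.7 kb of Dnmt1.

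Uhrf1, the partner that guides Dnmt1, had 1 weak peak of its own. It lay between the 2 listed starts, from 56303374 to 56304061 on chromosome 17, 37 bp downstream of the first and 252 bp upstream of the second, with a signal value of 2.90 (−log10 q 2.16). A share of 10.1% of genes with a start peak had a weaker one. Dnmt3b, the other de novo methyltransferase, had no peak at either end or in its 38.3 kb. The nearest peak edge was 16.4 kb upstream of its start, at an end of Commd7. Its start window held 30 CG dinucleotides and 4 matches to GGGCGG, and 63.7% of the 3283 listed starts with at least 30 CG dinucleotides had a peak within 1 kb. The absence of a peak at Dnmt3b was thus in a class of promoters where most had one.

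Among the erasers, Tet2 carried the strongest start peak of all 10 genes. It lay from 133543144 to 133544344 on chromosome 3, 1201 bp wide, began 46 bp downstream of the listed start at 133544390 and had a signal value of 6.33 (−log10 q 16.8). Tet2 stood at position 1829 of 6647 genes ordered by their strongest start peak, next to Unc50 (6.33) and Idnk (6.31). Its start window held 57 CG dinucleotides, more than 99.8% of the listed starts. A second peak, with a signal value of 2.72, lay 26.2 kb into the gene. No peak was found in either 50 kb flank, and no other protein-coding gene ended there.

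Tet1 and Tet3 differed from Tet2 in that no peak lay at their listed starts. At Tet1 the nearest peak edge was 21.3 kb inside the gene. Its 3 body peaks had signal values of 2.00, 2.51 and 3.33, and the first 2 had q-values of 0.433 and 0.0604, so a single body peak of Tet1, from 62823645 to 62824929 on chromosome 10, was under 0.05. At Tet3 a peak from 83456643 to 83457255 on chromosome 6 covered the outer end of the gene, 15.0 kb upstream of the listed start, with a signal value of 3.67 (−log10 q 4.38). No start is listed at that end in the RefSeq table used here, so whether it is a start in these cells was not tested. Tet3 had 4 body peaks with signal values from 2.45 to 3.39, of which 2, side by side between 83411125 and 83414865, had q-values under 0.05.

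Set side by side, 3 of 4 writers and 1 of 3 erasers had a peak at a listed start, while 1 of 4 writers and 2 of 3 erasers had one at an outer end. Over all genes these shares were 38.0% and 36.2%. The median of the strongest start signal was 3.02 over the 3 writers and 6.33 for Tet2, the single eraser. When −log10 q had to reach 5, 1 of 4 writers was left, Dnmt3a, and the writers' value became its 6.30, while 1 of 3 erasers, Tet2, was left at 6.33. By outer ends the strongest signal was 2.90 for Uhrf1, the single writer, and 3.67 and 6.33 for the erasers Tet3 and Tet2. By starts, Dnmt3a at 6.30 lies just below Tet2 at 6.33. With so few genes no order between writers and erasers can be read from these values. Body peaks away from starts numbered 4 in the writers, all in Dnmt3a, and 8 in the erasers, at each of the 3. Of genes of at least 20 kb with a listed start, 27.3% had one. All 4 in Dnmt3a had q-values under 0.05. Among those of the erasers, q was 0.433 and 0.0604 at Tet1 and 0.159 and 0.0604 at Tet3. Dnmt3a and the 3 erasers are also longer than the other writers.

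The isocitrate dehydrogenases each had a single peak of their own. Idh2 had it from 80113858 to 80115118 on chromosome 7, 232 bp downstream of the listed start at 80115350, with a signal value of 4.01 (−log10 q 5.62). Idh1 had it from 65179286 to 65179626 on chromosome 1, 144 bp upstream of the second listed start at 65179142, with a signal value of 3.09 (−log10 q 2.68). The first start of Idh1, 7.34 kb upstream and beside the neighbouring gene Pikfyve, had no peak within 1 kb. Both Idh1 windows held 23 CG dinucleotides, so this count did not separate the start with a peak from the one without.

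Asxl1 had 3 small peaks around its start at 153345830 on chromosome 2. The middle one, from 153345816 to 153346157, covered the start with a signal value of 3.46 (−log10 q 3.79). The 2 on either side had signal values of 2.51 and 2.57 and q-values of 0.0604. A further peak, with a signal value of 3.03, lay 5.34 kb into the gene. The acetylation at Asxl1 was thus called in short pieces of 342 to 620 bp around the start. The start peaks of Tet2 and Dnmt3a were wider, at 1201 and 1882 bp. At Dnmt3a a further short piece of 364 bp began 1158 bp beyond the internal start.

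The 5 genes known from clonal blood disorders, Dnmt3a, Tet2, Asxl1, Idh1 and Idh2, all had a peak at a listed start, and 2 of the other 5 did, Dnmt1 and Uhrf1, against 38.0% of genes with a listed start. When −log10 q had to reach 5, the counts were 3 of 5 and 0 of 5, against 25.4%. By outer ends they were 2 of 5 and 2 of 5, against 36.2% of protein-coding genes. These are counts of 10 chosen genes, carry no test and give no order between both groups.

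**Figure D3:**
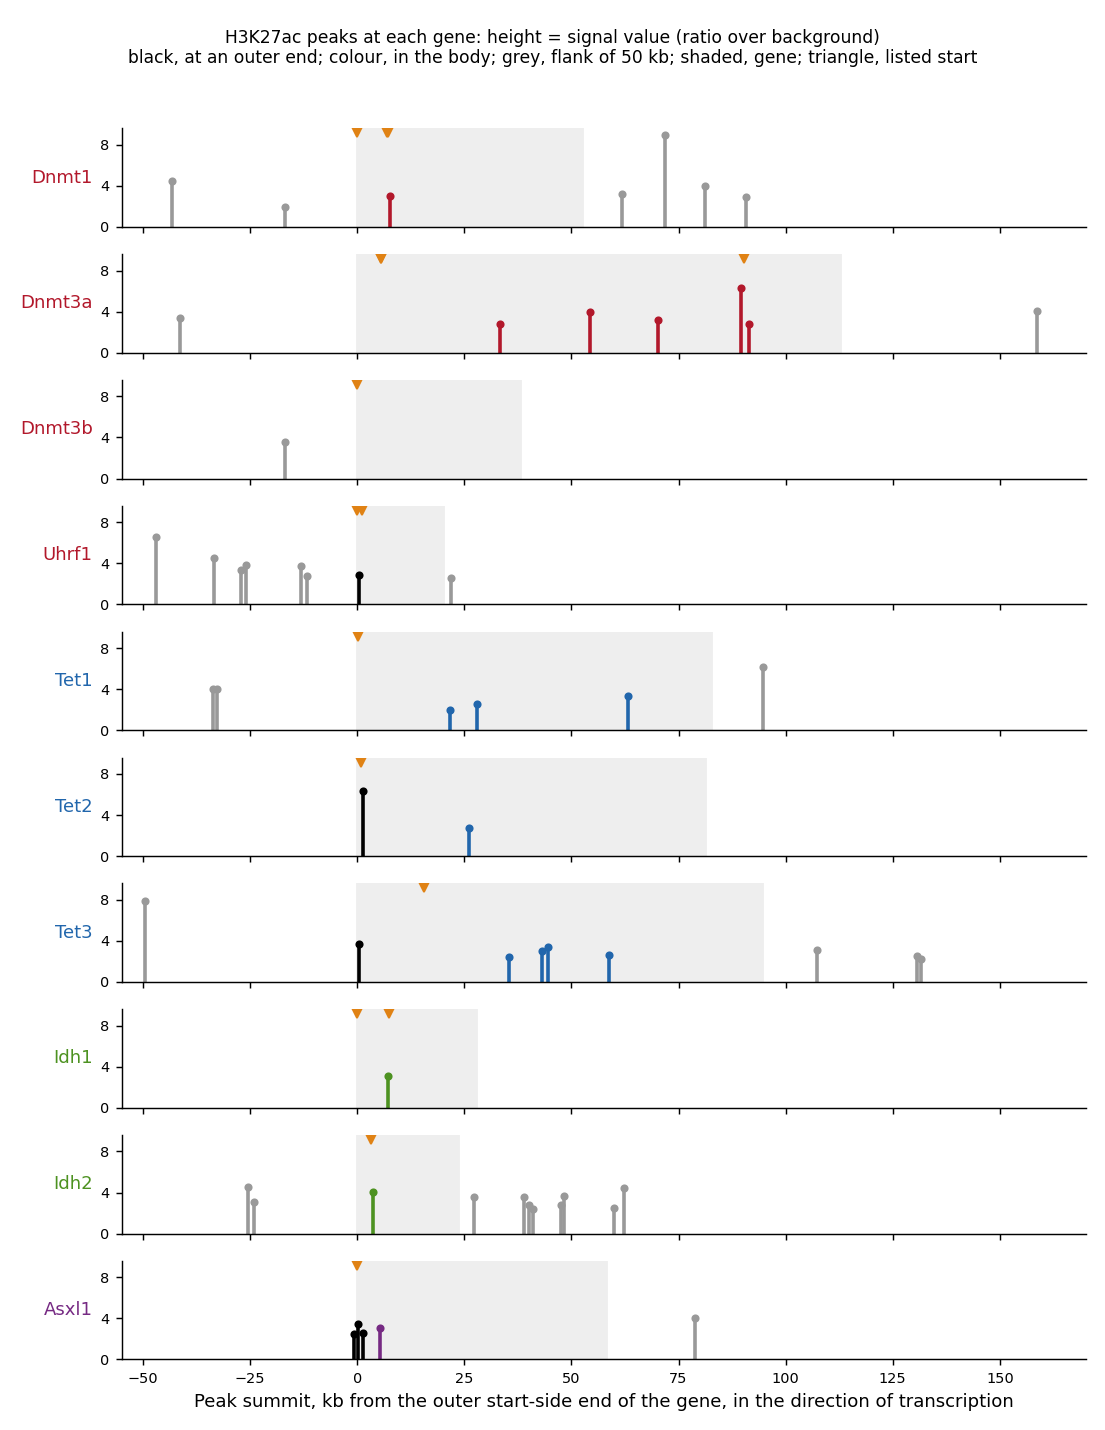
Map of all 57 peaks of the 10 genes. The x axis is the summit's distance in kb from the outer start-side end in the direction of transcription and the y axis the signal value; gene bodies are shaded, and triangles mark listed starts. The internal peak of Dnmt3a stands at 89.5 kb, the start peak of Tet2 at 1.28 kb, and the tallest line, of 8.91, is in the flank of Dnmt1.

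In the gene bodies, 8 of the 10 genes had a peak that was not at an outer end, against 16.6% of protein-coding genes and 31.0% of those of at least 20 kb, a length that all 10 genes reach. At 3 of the 8, namely Dnmt1, Idh1 and Idh2, the only such peak was the one at a listed start. Away from listed starts, 5 of the 10 had a body peak, against 27.3% of genes of at least 20 kb with a listed start. These 5 were Dnmt3a, Tet3, Tet1, Tet2 and Asxl1, with 4, 4, 3, 1 and 1 peaks. They are also the longest of the 10, at 58.2 to 112.9 kb, while the other 5 measure 20.2 to 52.7 kb; the part of length in this count was not tested. Per 10 kb of gene, the body peaks numbered 0.443 in Dnmt3a, 0.422 in Tet3, 0.421 in Idh2, 0.362 in Tet1, 0.359 in Idh1, 0.190 in Dnmt1, 0.172 in Asxl1, 0.123 in Tet2 and 0 in Dnmt3b and Uhrf1, against 0.0975 over all protein-coding genes. Most of these peaks were weak: when −log10 q had to reach 5, 3 of the 17 body peaks were left, 2 in Dnmt3a and the one at the start of Idh2. That is 2 of the 10 genes, against 14.3% of genes of at least 20 kb, a share near the background.

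Most peaks in the flanks lay near the ends of other genes or inside them, and which gene they act on was not tested. Within 50 kb outside the ends, 8 of the 10 had a peak, against 57.6% of protein-coding genes, and these flanks held 34 peaks. Of these, 20 lay within 1 kb of an end of another protein-coding gene, 11 lay inside another such gene and 3 did neither. Non-coding genes were not checked here. The strongest peak near Dnmt1 had a signal value of 8.91, above any peak at the 10 genes themselves, and lay 0.23 kb from an end of Ppan. All 6 flanking peaks of Dnmt1 were inside or within 1 kb of a neighbour, as were the 3 of Tet1, at Ccar1 and Slc25a16, and the 4 of Tet3, the strongest of them at Dguok with a signal value of 7.84. For Uhrf1 this held for 6 of 7 flanking peaks, at Fem1a, Ticam1, Plin3 and Kdm4b. The peak that was left lay 1.15 kb from an end of Plin3.

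Idh2 had the most flanking peaks, 10, and the pattern was of another kind. On the downstream side 8 lay inside the neighbouring gene Zfp710, with signal values from 2.39 to 4.44. None of these was within 1 kb of an end of another protein-coding gene. On the upstream side a pair lay at -24.1 and -25.5 kb from the outer end of Idh2, with signal values of 3.06 and 4.50. Idh2 was the protein-coding gene with the nearest end. This pair ran from 80142472 to 80145079 on chromosome 7. Among protein-coding genes alone, it was the only flanking signal of the 10 outside other genes and nearer to the gene itself than to a neighbour. In the other flanks Dnmt3a had 2 peaks, in Dtnb and at Pomc, Asxl1 had 1, in Nol4l, and Idh1 and Tet2 had 0.

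**Figure D4:**
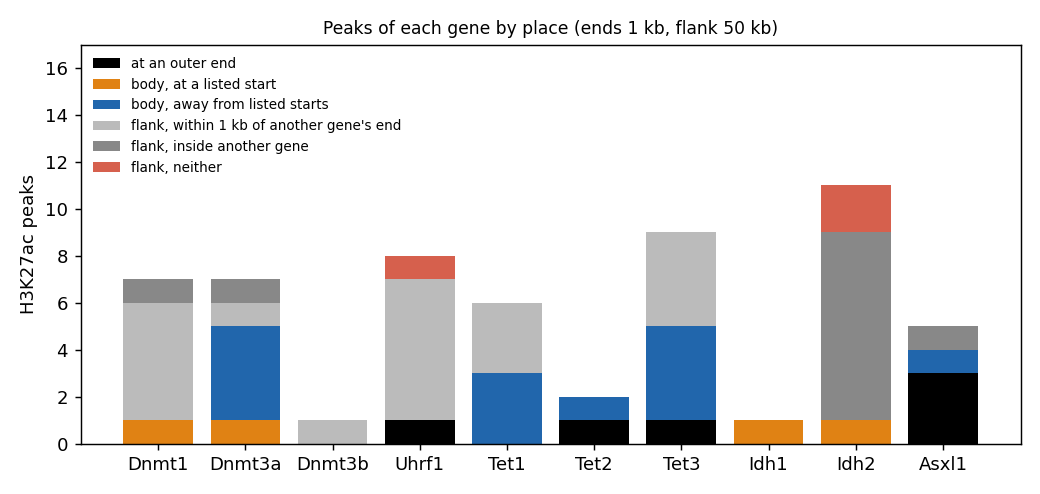
Number of peaks of each gene (y axis) by place, stacked: outer ends, body at a listed start, body away from listed starts, and flanks of 50 kb. The flanks are split by whether the peak lay within 1 kb of another protein-coding gene's end, inside another such gene, or neither. Idh2 reaches 11 through its flanks, Tet3 reaches 9, and Dnmt3b and Idh1 have 1 each.

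The promoter windows were searched on both strands for the GC box GGGCGG, the NF-Y box CCAAT, the ETS site CCGGAAGT, the E2F site TTCCCGC, the E-box CACGTG and the TATA box TATAAA. The GC box was found in 14 of the 16 windows of the 10 genes, against 46.2% of 21263 listed starts of protein-coding genes. It reached 7 matches at the second Dnmt3a start and was missing from the first 2 starts of Dnmt1. The windows of the first and second Dnmt3a starts overlap, so matches in the shared bases are counted in both. GGGCGG itself holds a CG, and the 46.2% is not matched for the number of CG dinucleotides in the windows. The part of base composition in this count was not tested. CCAAT was found in 7 windows, against 38.2%, with 5 matches at the first Dnmt1 start and 3 each at the third Dnmt1 and the first Uhrf1 start. TTCCCGC was found at Asxl1, where it shares bases with a GGGCGG match, and at the first start of Uhrf1, against 5.95% of starts, and CACGTG, its own reverse complement, at the internal Dnmt3a start alone, against 7.84%. The ETS and TATA letters were in 0 of the 16 windows, against 5.15% and 12.6%. These counts describe letters in the windows and do not show binding. Over all starts, the share with a peak rose with the number of CG dinucleotides, from 6.40% of windows with 0 to 4 of them to 47.7% with 10 to 19 and 61.5% with 20 to 29. Among the 16 windows, the 7 without a peak held 2 to 47 CG dinucleotides and the 9 with a peak held 12 to 57, so the groups overlapped.

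Related genes of the pathway were counted by peaks at outer ends, read against the same 36.2%. Of 10 paralogs and maintenance partners, 6 had one, the strongest at Bap1 (11.8), the deubiquitinase partner of Asxl1, at its paralog Asxl2 (11.1) and at Pcna (10.4), the replication clamp. Dnmt3l, Hells, Usp7 and Asxl3 had none. Of 8 genes of the methyl-CpG-binding families, 7 had one, led by Zbtb4 (8.97), Mbd3 (5.99) and Mbd1 (5.14), and Zbtb38 had none. Of 10 demethylation and repair partners, 6 had one, led by the repair scaffold Xrcc1 (11.1), the glycosyltransferase Ogt (8.51) and the nuclease Apex1 (6.33). Smug1, Ung, Gadd45b and Cxxc4 had none. All 4 CpG-island binders had one, the strongest at Kdm2b (9.87), Cxxc1 (5.79) and Fbxl19 (5.02). Of 10 genes of alpha-ketoglutarate and methyl-donor metabolism, 8 had one, while D2hgdh and Ahcy had none. The strongest were at Mat2b (9.40) and Mat2a (8.57), subunits of the enzyme that makes the methyl donor. Idh3g (6.36), a subunit of the third isocitrate dehydrogenase, came next. The median of the strongest end signal over the genes with one was 8.26, 4.93, 5.97, 5.40 and 5.03 in these 5 lists, in the order given. Tet2 at 6.33 lay above 4 of these medians, and Tet3, Asxl1 and Uhrf1, at 3.67, 3.46 and 2.90, lay below all 5. By listed starts, which some partners lack in the table, the counts in the same order were 7 of 9, 5 of 5, 5 of 9, 2 of 2 and 6 of 7 genes, against 38.0%. The medians of the strongest start signal were 6.09, 5.99, 6.33, 7.14 and 6.49, and Tet2 lay above the first 2 of them.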

How the data were processed

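The deposited file is 1 narrowPeak list for the 4 H3K27ac libraries of Mll3/4-deleted HSC/MPP over 1 input library. The submitters' processing notes name BWA, MACS2 and mm10 with neither roles nor versions; filters and the way replicates were combined are not given in the sources used here. The list has no header. By the usual column order its columns hold the authors' score, the authors' signal value (a fold ratio over background), and the deposited −log10 p-value and −log10 q-value. All single-peak values are the authors' and were used only to describe peaks within the list. Genes, listed starts and promoter sequences came from NCBI RefSeq tables of GRCm38.p6, the same assembly as mm10, with 21887 protein-coding genes, of which 17492 had a listed start. All 10 genes and all listed partners matched by symbol. Coordinates are 1-based.

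A peak was at an end or a start when it overlapped the 1 kb on either side. A body peak was not at an outer end and had its summit between the ends. A flanking peak had its summit within 50 kb outside them. The assignment was tested on simulated peaks at 200 genes. Shares over all genes stand beside the main counts; no p-value was computed, because the list holds no replicate values. The genes, lists, rules for names (all 10 genes; in each partner list the 3 strongest and those without an end peak) and alternatives were chosen with earlier results of these data known. The neighbouring genes, the share among genes of at least 20 kb and the medians by listed starts were chosen after seeing the peaks. Python 3.11.15, pandas 2.3.3 and numpy 2.4.6 were used. Counts at markers of lineage cells, which the sort should leave out, are not reported here.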

Additional observations from a re-analysis of the deposited data

How the results depend on the processing

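Of 75 recomputed values, 53 stayed within 1.5 times the value reported (for the share over all genes, within its 95% Wilson interval, which covers counting error only), and 22 moved. Stricter lists had the widest effect. When −log10 q had to reach 5, the genes with a peak numbered 1 at outer ends, 3 at listed starts and 2 in bodies (over all genes 24.0%, 25.4% and, for bodies of genes of at least 20 kb, 14.3%), with 1 end peak, 3 body peaks and 13 flanking peaks. When the signal value had to reach 4, they numbered 1, 3 and 2, with 1, 2 and 13 peaks. For this setting the share over all genes is given at outer ends alone, 23.2%. The counts of 3 at listed starts and 2 in bodies therefore cannot be read against a background. In both settings the median start signal of the writers was 6.30, that of Dnmt3a alone, and no writer had an end peak, so the end median of the writers has no value there. Flanking peaks numbered 17 within 25 kb and 53 within 100 kb. The share of genes with an end peak was 24.0% under the first of these lists, 23.2% under the second, 34.4% with q held to 0.05, 39.3% with 2.5 kb, 33.3% by summits and 20.9% over all annotated genes. By construction these settings change the peaks kept, the width of the window, the overlap rule or the genes counted. No paired analysis was possible because the columns carry no replicate numbers or values of single libraries, and for the same reason none could be left out. Depth is unknown, so how many weak peaks deeper sequencing would keep was not measured.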

Other observations

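Other genes known from clonal blood disorders were counted as a list of 14. Of these, 11 had a peak at an outer gene end, against 36.2% of protein-coding genes. The strongest were at the splicing factor genes Sf3b1 (signal value 12.1) and U2af1 (11.2) and at Gnb1 (7.25), a G-protein subunit. By listed starts the count was 11 of 12, against 38.0%. Bcorl1, Rad21 and Gnas had none at an outer end, and Gnas had 2 at listed starts, the stronger with 8.14. The median of the strongest end signal was 5.32 over the 11 genes, against 4.71 over all 7929 genes with an end peak and 6.33 and 3.46 at Tet2 and Asxl1.

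Some genes of the partner lists, chosen after their values were seen, also differed between the outer ends and the listed starts. Usp7, a deubiquitinase, had no peak at an outer end but 1 at a listed start (4.59) and 8 in its body, and Zbtb38 had 1 at a listed start (6.43) and 5 in its body. Mbd2 had 7 body peaks, more than any of the 10 genes.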
